A study of Mus musculus with 43 samples.

Results

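At postnatal day 14 (P14), 687 peaks of the histone mark H3R2me2a had their summit inside an exon and away from every transcript start in mouse testis cells. They were chosen from 21374 peaks of the first H3R2me2a library at P14 that overlapped a peak of the second library by at least 1 bp. The summit of each of the 687 lay in an exon of the GENCODE vM21 annotation and more than 3000 bp from every transcript start. These exonic peaks made up 3.21% of the shared peaks, while 12374 lay within 3000 bp of a start (called promoter peaks here), 4041 in introns and 4152 between genes. The fold enrichment, position and replicate overlap of the peaks were thus fixed by the choice itself and are given as a description.

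H3R2me2a is the asymmetric dimethylation of arginine 2 of histone H3. It is laid down mainly by the methyltransferase PRMT6, and in other cells it is known to exclude, and to be excluded by, H3K4me3, the trimethylation of the neighbouring lysine that marks active promoters. H4R3me2a is the asymmetric mark that PRMT1 deposits on histone H4, H3R8me2a is a further asymmetric arginine mark, H4R3me1 is the monomethyl form, H4R3me2s the symmetric form, and H3K27ac marks active promoters and enhancers. Exon bodies are not the usual place for such marks, but long coding exons and the coding parts of last exons are often rich in G and C, as promoters are.

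The chromatin lists came from CUT&Tag, in which an antibody guides a transposase to the mark in cells and the cut fragments are sequenced, and 33 lists were deposited. At P14 there were 16 libraries, all from wild-type (WT) C57BL/6J testis cells that carried no deletion. They comprised 2 libraries each of H3R2me2a, H3R8me2a, H4R3me1, H3K27ac and H3K4me3, and 3 each of H4R3me2a and H4R3me2s. At P7 there were 15 WT libraries, among them 2 of H3R2me2a, and 2 H4R3me2s libraries of Prmt1-dKO testes. In these mice (Ddx4-CreERT2, Prmt1 lox/lox) the Ddx4 promoter, which is active in germ cells, drives a tamoxifen-inducible Cre, and tamoxifen was given to delete Prmt1, the gene of the main asymmetric arginine methyltransferase. RNA was measured at P7 only: 3 WT and 3 Prmt1-dKO whole testes by bulk RNA-seq, and 2 and 2 samples of sorted EGFP+ spermatogonia by Smart-seq2. By the study's methods the controls of the sorted spermatogonia carried the Cre and 1 floxed Prmt1 allele.

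The labels at P14 do not settle the cell type, since the sample titles read spermatogonia and the cell type field reads spermatocyte. The study's methods name the P14 material spermatocytes and describe straining the cell suspension to remove Sertoli cells. The peak names inside the 3 P14 H4R3me2s lists carry another day (SD17), so the comparison of marks is also given without them. H3K4me3 peaks lay at the starts of 6 of 6 spermatogonial and 8 of 8 spermatocyte marker genes in both P14 lists, but also at 7 of 8 Sertoli cell markers. They lay at 1 of 3 peritubular markers in the first list and 2 of 3 in the second, at 1 of 3 and 3 of 3 endothelial markers, and at 0 of 5 Leydig cell and 0 of 5 macrophage markers in both. Nothing in the labels says that libraries of one group came from separate animals. The p-values between ages or genotypes therefore measure the spread between these libraries. Those of the tests over 6 marks measure the spread between marks, each averaged over its libraries. Total RNA counts ran from 12396317 to 16598233 in bulk RNA-seq and from 15610354 to 18547078 in Smart-seq2, and no read depth was given with the peak lists. Prmt1 stood at 219 to 247 CPM (counts scaled to library size) in WT and 146 to 199 in Prmt1-dKO whole testes, and at 149 to 216 and 86.5 to 112 CPM in the sorted cells. These counts cover the whole gene and not only the deleted exons.

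Stretches of 150 bp around 8 summits, all in coding sequence, show what kind of sequence carried the mark. They were read from GRCm38 on the strand of the gene, 5′ to 3′, with each CG dinucleotide in capitals. Runx1, Zfp697 and Dmrt3 are shown as exons that also bore H3K4me3 in both P14 lists. Eppk1 and Muc6 are exons with a peak in all 31 other lists, and Col8a1 and Cep152 exons with no peak of another mark at P14. Sohlh2 is the spermatogonial regulator among the hosts, and its peak had q above 0.05 in both libraries.
Runx1, coding sequence in exon 8 of 8, chr16:92605917-92606066, minus strand: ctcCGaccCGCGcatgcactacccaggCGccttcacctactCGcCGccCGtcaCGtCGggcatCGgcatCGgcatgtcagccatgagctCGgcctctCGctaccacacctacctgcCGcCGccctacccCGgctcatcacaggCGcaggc
Zfp697, coding sequence in exon 3 of 3, chr3:98427648-98427797, plus strand: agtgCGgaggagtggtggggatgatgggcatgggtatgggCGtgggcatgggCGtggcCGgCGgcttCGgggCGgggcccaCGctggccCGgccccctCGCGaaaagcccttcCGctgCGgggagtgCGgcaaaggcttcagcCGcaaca
Dmrt3, coding sequence in exon 2 of 2, chr19:25622499-25622648, plus strand: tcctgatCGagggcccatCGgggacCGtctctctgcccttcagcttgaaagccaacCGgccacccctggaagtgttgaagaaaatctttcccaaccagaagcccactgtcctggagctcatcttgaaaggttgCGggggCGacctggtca
Eppk1, coding sequence in exon 2 of 2, chr15:76103477-76103626, minus strand: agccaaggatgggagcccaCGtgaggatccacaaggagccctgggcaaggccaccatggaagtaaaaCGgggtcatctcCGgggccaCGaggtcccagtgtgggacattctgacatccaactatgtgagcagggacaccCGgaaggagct
Muc6, coding sequence in exon 31 of 33, chr7:141639484-141639633, minus strand: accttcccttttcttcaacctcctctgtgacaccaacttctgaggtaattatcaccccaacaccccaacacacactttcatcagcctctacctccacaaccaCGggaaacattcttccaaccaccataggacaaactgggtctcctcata
Col8a1, coding sequence in exon 4 of 4, chr16:57627769-57627918, minus strand: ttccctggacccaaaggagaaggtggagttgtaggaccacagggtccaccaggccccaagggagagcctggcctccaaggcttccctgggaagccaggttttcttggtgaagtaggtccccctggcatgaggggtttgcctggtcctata
Cep152, coding sequence in exon 28 of 28, chr2:125564027-125564176, minus strand: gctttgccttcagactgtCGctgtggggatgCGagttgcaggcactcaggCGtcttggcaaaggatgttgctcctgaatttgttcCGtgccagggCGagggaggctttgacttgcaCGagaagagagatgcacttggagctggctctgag
Sohlh2, coding sequence in exon 10 of 11, chr3:55207605-55207754, plus strand: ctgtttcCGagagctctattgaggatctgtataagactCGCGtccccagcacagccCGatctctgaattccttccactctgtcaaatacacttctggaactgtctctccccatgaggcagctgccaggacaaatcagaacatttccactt

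The stretch of Runx1 held 17 CG dinucleotides and that of Zfp697 held 15, against 6 in Dmrt3, 6 in Cep152, 5 in Eppk1, 4 in Sohlh2, 1 in Muc6 and 0 in Col8a1. The Col8a1 stretch reached 59.3% GC without a single CG. Over all 687 peaks the median CG count of the window rose with its GC content, from 3 under 50% GC to 27 at 65% and over.

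The peaks were weak and narrow. Fold enrichment over the background that the peak caller modelled ran from 1.96 to 11.1 with a median of 2.84 in the first library, and from 1.93 to 10.3 with a median of 2.79 in the second. Peak width ran from 200 to 2652 bp, with a median of 345 bp, against 353 bp for intronic, 365 bp for intergenic and 430 bp for promoter peaks. The median −log10 q was 1.52 in the first and 1.68 in the second library. In 99 peaks q was above 0.05 in both, and in 119 it was at most 0.01 in both. The 5 peaks just inside the limit on distance lay 3001 to 3032 bp from a start, with fold enrichments of 2.21 to 3.56, and the 5 shared exonic peaks just outside lay at 2954 to 2998 bp, with 2.11 to 3.78. Because 40 of the peaks shared 20 peaks of the second library, the 687 rested on 667 peaks there.

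The 687 peaks lay in 644 host genes, of which 600 were protein-coding. Of the peaks, 642 were assigned to protein-coding genes, 23 to lincRNAs and 9 to antisense transcripts, and 11 summits lay in exons of more than 1 gene. A single peak was found in 603 genes, 2 peaks in 40 genes, and 4 peaks in Fam186a alone. All 4 peaks of Fam186a lay within a coding exon of 7978 bp, exon 4 of 8, on chromosome 15, where they spanned 99943105 to 99945310 and overlapped 2 peaks of the second library. The median distance from a summit to the nearest transcript start was 7820 bp, and the longest was 129531 bp.

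Coding sequence held most of the exonic peaks. Among the exonic bases that could have held a summit by the same rule (56.5 Mb), coding sequence made up 32.3%, but it held 464 of the 687 peaks (67.5%). This was 25.4 peaks per Mb, against 6.21 per Mb in 3′UTRs, which held 147 peaks, and 5.26 per Mb in noncoding exons, which held 75. A single peak lay in a 5′UTR. Last exons held 416 peaks (60.6%) at 10.8 per Mb, and internal exons held 264 (38.4%) at 16.1 per Mb. Of the peaks in last exons, 218 lay in the coding part.

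The host exons had a median length of 1642 bp, with quartiles of 541.5 and 2995.5 bp and a range of 48 to 40044 bp. Exons of 2000 to 4000 bp held 26.2% of the peaks and 26.6% of the exonic bases open to the rule. Exons of 4000 bp or more held 16.0% of the peaks and 21.4% of the bases. Peaks were thus not concentrated in the longest exons. Over all exons the density was 9.32 per Mb under 200 bp and 16.8 per Mb at 500 to 1000 bp. It was 16.8 per Mb at 1000 to 2000 bp, 12.0 at 2000 to 4000 bp and 9.12 from 4000 bp. Among internal exons the density of peaks was 9.27 per Mb in exons under 200 bp, 17.8 per Mb at 200 to 500 bp and 33.0 per Mb at 500 to 1000 bp. It reached 48.5 per Mb at 1000 to 2000 bp, which rests on 46 peaks, and stood at 28.9 and 32.2 per Mb in the 2 longer classes, with 20 and 12 peaks. Among last exons it varied less, from 6.11 per Mb at 200 to 500 bp (12 peaks) to 13.1 per Mb at 1000 to 2000 bp (107 peaks). Internal exons were in fact so short that 125 of the 264 peaks in them (47.3%) were longer than the exon that held the summit, so these peaks also covered intron.

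**Figure D1:**
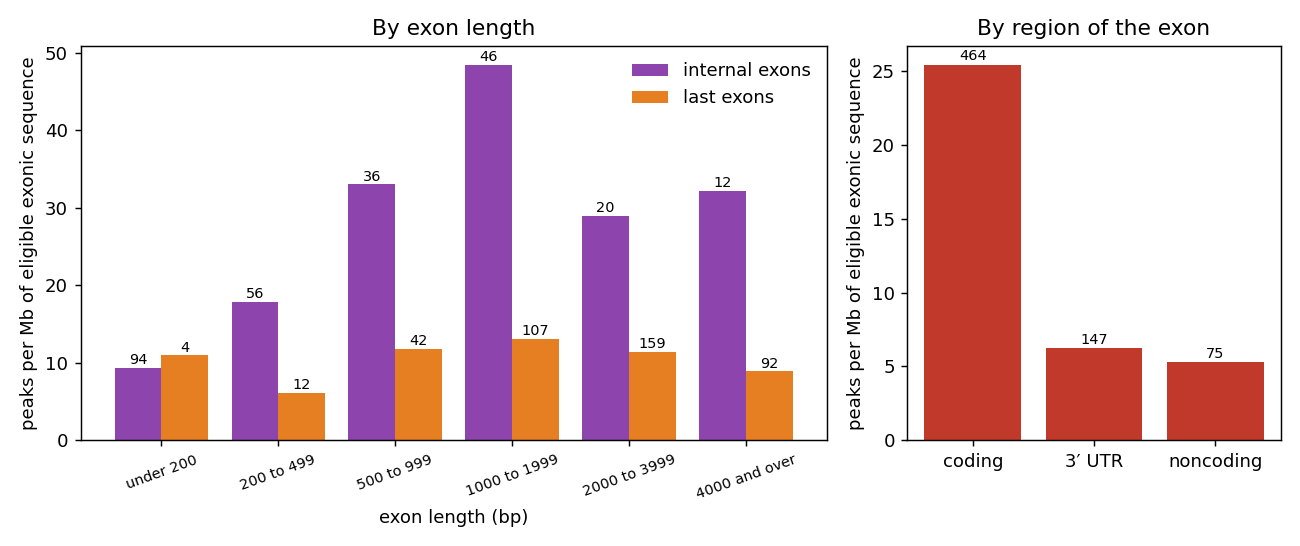
Density of exonic H3R2me2a peaks at P14, in peaks per Mb of exonic sequence more than 3000 bp from a transcript start, by region of the transcript and by exon length for internal and last exons; bars start at 0. Coding sequence stands at 25.4 per Mb against 6.21 in 3′UTRs, and internal exons rise from 9.27 per Mb under 200 bp to 48.5 at 1000 to 2000 bp.

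Within last exons the summits lay towards the 5′ end, where the coding part is. Of the 416 summits, 158 (38.0%) lay in the 5′-most of 5 equal parts of the exon and 26 (6.25%) in the 3′-most, and the median relative position was 0.28 on a scale from 0 at the 5′ end to 1 at the 3′ end. In internal exons the median was 0.50. Summits within 100 bp of the 5′ end of the exon numbered 30 in last exons and 90 in internal exons, in which 91 lay as close to the 3′ end.

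The exonic peaks lay in sequence richer in G and C than the other distal peaks did. The 300 bp around the summit had a median GC content of 58.0%, against 52.3% for intronic, 52.7% for intergenic and 62.7% for promoter peaks, while the exonic bases open to the rule stood at 45.1%. The windows held a median of 9 CG dinucleotides, against 3 in introns, 3 between genes and 20 at promoters. On average 6.88% of the window was repeat-masked, against 28.5% and 30.5% for intronic and intergenic peaks. Peaks in coding sequence had a median GC of 59.7% and 11 CG dinucleotides, and peaks in 3′UTRs 55% and 5.

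Exonic sequence as a whole held 12.2 peaks per Mb, intronic 4.58, intergenic 3.20 and promoter sequence 30.1. At like GC content the densities were close in the middle of the range. In windows of 50 to 55% GC the density was 15.7 per Mb in exons, 15.5 in introns and 14.1 between genes. In windows of 55 to 60% GC it was 46.9, 49.1 and 54.9 per Mb. The density in exons was higher only in the GC-richest windows: 139 against 101 and 94.5 per Mb at 60 to 65% GC, and 300 against 98.1 and 128 per Mb from 65% upwards, where 83 exonic, 59 intronic and 134 intergenic peaks lay. At 40 to 45% GC it was lower in exons, 0.648 against 1.45 and 1.08 per Mb. These densities come from a single set of shared peaks, so they have no replicate error, and no test was run on them.

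**Figure D2:**
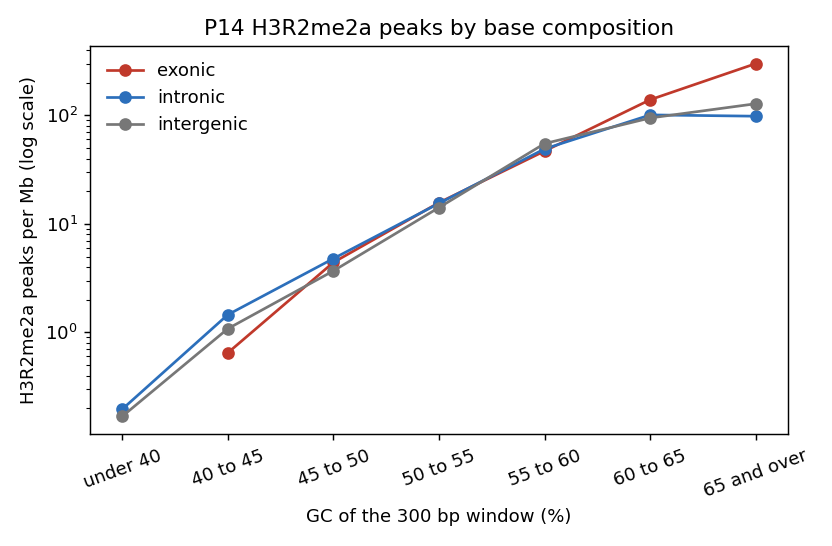
Peaks of H3R2me2a per Mb of sequence at P14 (log axis) against the GC content of the 300 bp window, for exonic, intronic and intergenic sequence more than 3000 bp from a transcript start. The lines lie together between 45% and 60% GC, and exons stand above the others from 60% GC.

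At the same exons, the other marks of P14 were measured by the percent of the 687 peaks that overlapped a peak of each library by at least 1 bp. H4R3me2a peaks covered 29.0%, 31.6% and 31.3% of them in its 3 libraries, and H3R8me2a peaks 25.2% and 25.6%. H4R3me1 covered 19.4% and 23.9%, and H4R3me2s covered 17.3%, 9.17% and 10.9%. The asymmetric H4R3me2a was thus the arginine mark found most often at the exonic peaks and the symmetric form the one found least often. The order was that of the lengths of their lists, which averaged 41606 peaks for H4R3me2a, 31654 for H3R8me2a, 30516.5 for H4R3me1 and 24831 for H4R3me2s. H3K27ac covered 25.8% and 18.3%, and H3K4me3 24.0% and 29.7%.

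For the arginine marks these shares were lower than at the other distal H3R2me2a peaks. The exonic peaks were also weaker. Their median fold enrichment in the first library was 2.84, against 3.01 for intronic and 3.06 for intergenic peaks. The part of peak strength in these shares was not tested. H4R3me2a stood at 30.6% ± 1.44 (SD, n = 3 libraries) of exonic peaks, against 41.5% of intronic and 44.3% of intergenic peaks. H3R8me2a stood at 25.4% ± 0.309 (n = 2), against 34.2% and 36.0%, and H4R3me1 at 21.6% ± 3.19 (n = 2), against 34.1% and 37.6%. H4R3me2s stood at 12.5% ± 4.29 (n = 3), against 21.5% and 23.6%. H3K27ac differed less, with 22.1% ± 5.25 (n = 2) against 27.3% and 28.3%.

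H3K4me3 went the other way. It covered 26.9% ± 4.01 (SD, n = 2) of the exonic peaks, against 15.3% of intronic and 20.3% of intergenic ones, and both exonic values lay above both intronic values (16.2% and 14.5%) and both intergenic ones (21.3% and 19.3%). Over the 6 marks the mean difference between exonic and intronic peaks was −5.83 percentage points, from −12.5 for H4R3me1 to 11.5 for H3K4me3. An exact sign-flip permutation test over the 6 marks gave p = 0.188 (two-sided, adjusted p = 0.188 over both comparisons), with 5 of 6 marks lower at exons. Against intergenic peaks the mean was −8.51 points, with the same exact permutation test giving p = 0.0938 (adjusted p = 0.188) and again 5 of 6 lower. Neither passed 0.05, and the smallest p that 6 marks allow is 0.0312. The comparisons share the exonic peaks, and the marks share cells and the peak caller.

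**Figure D3:**
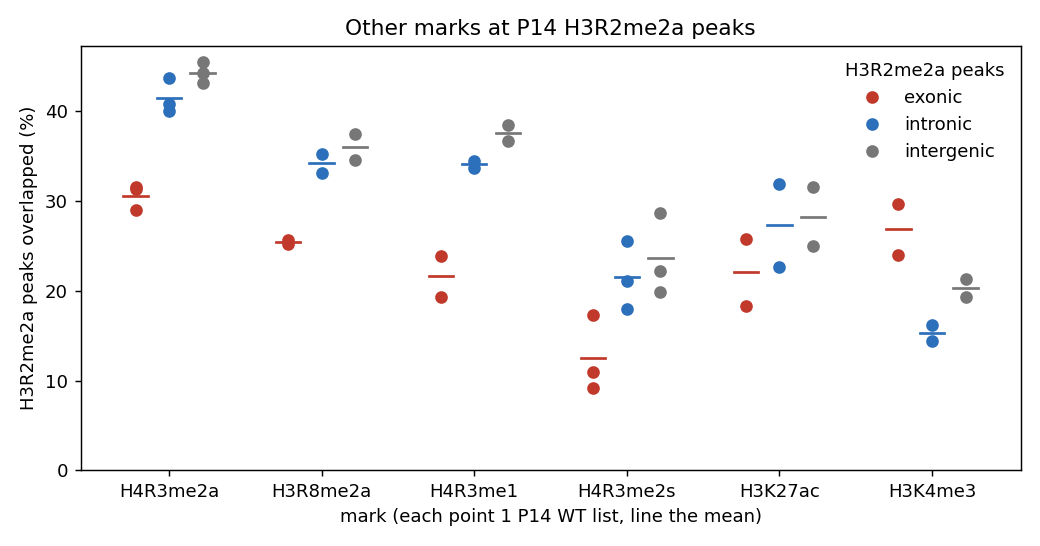
Percent of H3R2me2a peaks at P14 that overlap a peak of each other mark, for exonic, intronic and intergenic peaks; each point is a library. Exonic peaks lie below the others for the 4 arginine marks and above them for H3K4me3.

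Without the 3 H4R3me2s libraries whose peak names give another day, the mean differences over 5 marks were −5.19 and −7.99 points (exact permutation p = 0.312 and 0.188). Repeats moved with the difference: among windows with less than 50% repeat-masked bases, which kept 670 exonic, 3059 intronic and 3057 intergenic peaks, the mean differences were −2.15 points (exact permutation p = 0.562) and −5.18 points (p = 0.156). Among windows of 55 to 60% GC they were −7.73 points (exact permutation p = 0.0938) and −8.83 points (p = 0.0312), the latter with 6 of 6 marks lower at exons. In that GC class H3K4me3 covered 19.4% of exonic, 15.2% of intronic and 19.9% of intergenic peaks. All 3 of these restrictions were chosen after the data had been seen.

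H3K4me3 at the exonic peaks followed the number of CG dinucleotides. It covered 9.76% of the 164 peaks with 0 to 4 CG in the 300 bp window, 12.2% of the 217 with 5 to 9, 30.1% of the 148 with 10 to 14, 43.8% of the 64 with 15 to 19, and 73.9% of the 94 with 20 or more (means of the 2 libraries). Intronic peaks in the same classes stood at 13.3%, 13.1%, 30.3%, 43.4% and 69.1%, and intergenic peaks at 14.1%, 16.4%, 42.7%, 56.6% and 81.6%. At equal CG content the exonic peaks were therefore close to the intronic ones for H3K4me3, and below the intergenic ones in every class. Within GC-rich windows the CG count separated them: of the 74 exonic windows with at least 60% GC but fewer than 10 CG, H3K4me3 covered 9.46%, and of the 193 with at least 60% GC and 10 or more CG it covered 54.4%. Of the 113 windows with less than 60% GC but 10 or more CG it covered 32.7%.

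H3K27ac climbed less with the CG count at exons than H3K4me3 did. It covered 20.7% of the exonic peaks with 0 to 4 CG and 28.7% of those with 20 or more, where its libraries read 34.0% and 23.4%. In the class with 20 or more, H3K27ac covered 53.2% and 46.8% of the 47 intronic peaks and 61.5% and 49.6% of the 117 intergenic peaks in its 2 libraries, all above both exonic values. This difference was not tested.

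**Figure D4:**
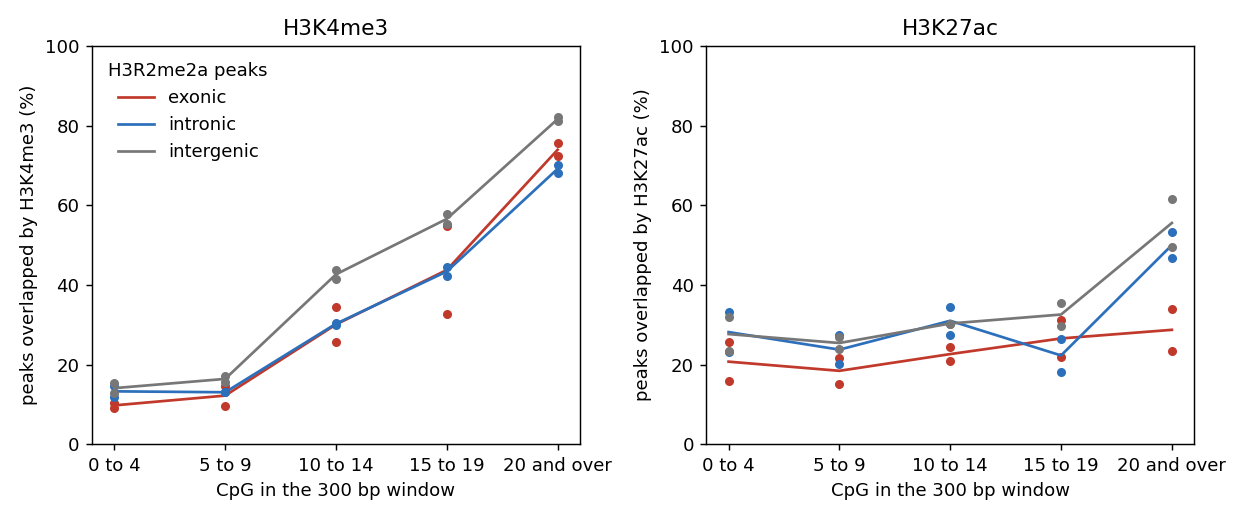
Percent of H3R2me2a peaks at P14 overlapping H3K4me3 and H3K27ac peaks, by the number of CG dinucleotides in the 300 bp window, for exonic, intronic and intergenic peaks. Each point is a library, and each line follows the mean of 2 libraries. H3K4me3 climbs with CG count in all 3 groups, and H3K27ac at exonic peaks stays between 18.4% and 28.7%.

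In all, 140 exonic peaks (20.4%) overlapped H3K4me3 in both libraries. They had a median of 18 CG and 62.0% GC, a median width of 448.5 bp, and lay in last exons in 105 cases and in coding sequence in 110. The 458 peaks with H3K4me3 in neither library had medians of 6 CG, 57.2% GC and 312 bp. Of the 140, 39 also had H3K27ac in both libraries and 65 in neither. The coding parts of last exons carried H3K4me3 in both libraries at 79 of 218 peaks (36.2%), and the coding parts of internal exons at 30 of 244 (12.3%).

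Runx1, a transcription factor of blood and epithelial development, and Dmrt3, a DM-domain transcription factor, were among the 8 strongest peaks, of which most also bore H3K4me3. In the last exon of Runx1 H3R2me2a had fold enrichments of 4.37 and 4.08 and H3K4me3 of 7.33 and 9.54. The H3K4me3 peak was also present at P7, at 5.94 and 7.76, where neither H3R2me2a library had a peak. In the last exon of Dmrt3 H3R2me2a stood at 4.11 and 4.41 and H3K4me3 at 5.66 and 6.6. In the last exon of Ppp1r3b, which encodes a glycogen-targeting subunit of protein phosphatase 1, the order was the other way, with H3R2me2a at 3.86 and 4.86 and H3K4me3 at 3.40 and 4.2. Lyst likewise stood at 5.87 and 4.60 for H3R2me2a and 5.34 and 3.57 for H3K4me3. Neither order held for all of the strongest peaks, and fold enrichments of different antibodies are not on a common scale.

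The GC box GGGCGG, the letters that Sp-family factors are known to bind, was found on either strand in 16.4% of the exonic windows, against 5.94% of intronic and 8.89% of intergenic windows and 35.7% of 32851 RefSeq promoter sequences of the same length (GRCm38). Among exonic windows it was found in 32.1% of the 140 with H3K4me3 in both libraries and in 10.9% of the 458 with none. The E-box CACGTG was found in 7.86% of exonic, 5.20% of intronic and 4.96% of intergenic windows and in 7.15% of promoters. The cAMP response element TGACGTCA was found in 2 of the 687 exonic windows (0.291%), against 1.79% of promoters. The purine-rich GAAGAA, a known form of exonic splicing enhancer, was found in 17.6% of exonic, 13.2% of intronic, 14.8% of intergenic windows and 23.0% of promoters. Such matches describe the letters in the windows and not the binding of a factor.

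How many other lists held a peak at the same place varied widely. Of the 687 peaks, 113 (16.4%) overlapped a peak in none of the 14 other P14 lists, the median was 2 lists, and 36 overlapped 10 or more. No other list at P14 held a peak at 14.6% of the intronic, 11.7% of the intergenic and 4.04% of the promoter peaks. All 14 lists held one at 5 exonic peaks (0.728%), against 2.45% of intronic and 3.81% of intergenic peaks. Peaks present for every mark thus made up a smaller share of the exonic peaks, by a count that has no replicate error.

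Lars2, Eppk1 and Muc6 had a peak in all 31 other lists, of both ages, all 7 marks and both genotypes. The peak of Lars2, the mitochondrial leucyl-tRNA synthetase, lay in its 3′UTR on chromosome 9 (123461766 to 123462276) and was the strongest of the 687, with fold enrichments of 11.1 and 10.3 for H3R2me2a and 8.92 to 20.9 over all 33 lists. The peak of Eppk1, which encodes the cytolinker epiplakin, was the widest at 2652 bp, with 2.97 to 4.77 over the lists. Muc6, which encodes a gastric mucin, stood at 3.25 to 5.57. H3R2me2a at P14, at 3.94 and 3.56 in Eppk1 and 3.88 and 3.82 in Muc6, lay within the range of the other antibodies. The signal at these exons thus did not separate it from the other marks. At Lars2 the marks differed more. There H3R8me2a stood at 19.9 and 18.5 at P14, against 11.1 and 10.3 for H3R2me2a and 10.7 and 11.4 for H3K27ac.

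Lyst, a regulator of lysosomal trafficking, and the transcript A730017L22Rik also had peaks in all 14 other P14 lists. At a noncoding exon of Lyst the H3R2me2a fold enrichments were 5.87 and 4.60, and the other P14 lists ran from 2.94 to 5.34. D130052B06Rik (6.34 and 7.21), Xkrx (4.78 and 3.66) and Pura, which encodes a purine-rich element binding protein (3.59 and 4.0), had peaks in 13 of 14.

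The opposite pattern, H3R2me2a without any other mark at P14, was led by Col8a1, which encodes a chain of collagen VIII. Its peak lay in coding sequence of the last exon on chromosome 16 (57627138 to 57628318), with fold enrichments of 5.29 and 4.85 over 1181 bp, 61.7% GC and 3 CG in the window. Outside P14 it was met in 3 lists, 1 of them H3R2me2a at P7. Art2b, an ADP-ribosyltransferase of T cells (3.17 and 3.99), Aph1c, a subunit of gamma-secretase (3.45 and 3.66), Card6, a caspase recruitment domain protein (3.49 and 3.41), and Cep152, a protein of centriole duplication (3.18 and 3.66), followed. Col8a1 and Art2b had peaks of a CG-poor kind, with 3 and 2 CG in windows of over 60% GC, and Aph1c had none at all in a window of which 54.0% was repeat-masked. The 113 peaks of this kind had a median width of 289 bp and a median of 7 CG.

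The marks were also counted over whole exons. Among protein-coding exons lying wholly more than 3000 bp from a start, 540 were the exon assigned to an exonic H3R2me2a peak, and 138998 were other exons. The other exons can include those of further transcripts that hold the same summit. A peak of H4R3me2a overlapped 33.9% of the assigned and 1.51% of the other exons, and one of H3R8me2a 25.9% and 1.06%. The shares were 23.5% and 0.993% for H4R3me1, and 13.3% and 0.693% for H4R3me2s. For H3K27ac the shares were 23.7% and 1.5%, and for H3K4me3 28.1% and 0.949%. The shares were higher in longer exons in both groups. H4R3me2a overlapped 21.6% of the assigned exons under 200 bp and 46.6% of those of 4000 bp or more. Among the other exons it overlapped 0.875% and 8.23%. Longer exons give any peak more bases to meet, and no test was made of these shares.

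Most exonic peaks of P14 had no counterpart at P7. The H3R2me2a lists of P7 overlapped 14.0% and 16.4% of the 687 (15.2% ± 1.75, SD, n = 2). Of the peaks, 37 (5.39%) were met in both P7 lists, 172 (25%) in at least 1, and 515 in neither. The share was 23.9% for intronic, 26.3% for intergenic and 22.9% for promoter peaks. Since the members were chosen at P14 and the P14 lists were longer (47975 and 55908 peaks against 18821 and 20891), a lower share at P7 was built into the choice. The 37 found at both ages were wider, with a median of 544 bp, against 323 bp for the 515.

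The other marks were also met less often at P7. Their lists did not enter the choice, but the places were chosen at P14 alone. Such a choice can favour P14 for any mark that lies with H3R2me2a, so the tests below cannot separate age from the choice. H4R3me2a covered 10.4% ± 0.802 of the exonic peaks at P7 and 30.6% ± 1.44 at P14 (SD, n = 3 each), a difference of 20.2 points. H3R8me2a stood at 9.10% ± 0.926 at P7, 16.3 points under its P14 value, and H4R3me1 at 11.9% ± 1.54, 9.75 points under it (SD, n = 2 each). H3K27ac stood at 7.79% ± 1.13, a difference of 14.3 points, and H3K4me3 at 12.0% ± 0.721, a difference of 14.8 points (SD, n = 2 each). H4R3me2s differed by 4.03 points, from 8.44% ± 0.618 (n = 2) to 12.5% ± 4.29 (n = 3), and by 1.60 points without the first P14 library, which read 17.3%. The libraries of the 2 ages did not overlap for any of the 6 marks. The exact permutation test gave p = 0.1 for H4R3me2a, 0.2 for H4R3me2s and 0.333 for the rest (adjusted p = 0.389 for all), and with 2 libraries against 2 it cannot go below 0.333. With every list cut to an equal number of its strongest peaks the differences were 5.92 points for H4R3me2a, 5.53 points for H3R8me2a and 5.02 points for H4R3me1, with H3K4me3 at 3.06, H3K27ac at 4.22 and H4R3me2s at 2.55 points. Each was smaller than with the full lists, which are longer at P14 for every mark but H4R3me2s.

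**Figure D5:**
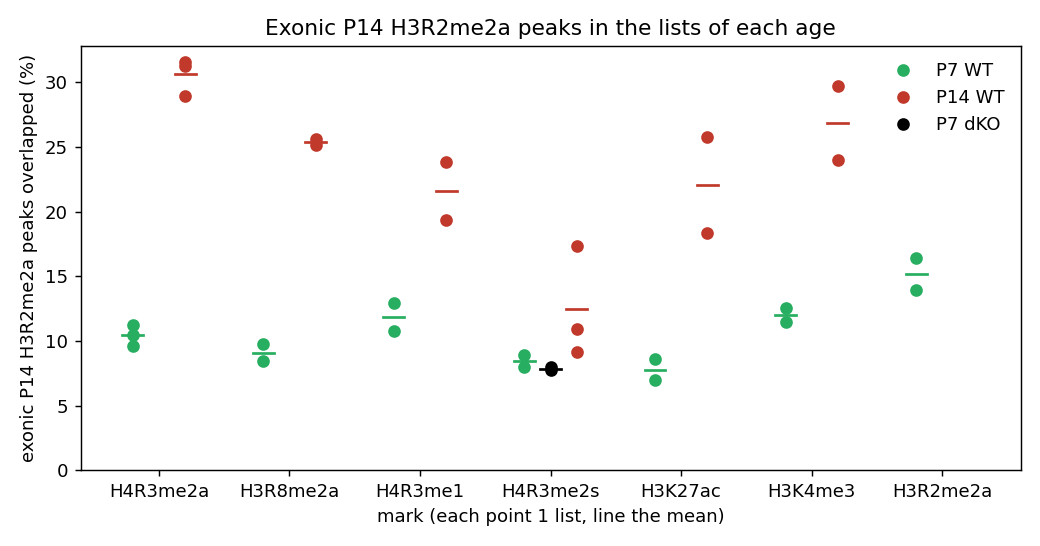
Percent of the 687 exonic H3R2me2a peaks of P14 that overlap a peak of each library at P7 and P14, by mark; each point is a library. The P14 libraries of the 6 other marks lie above those of P7, from 4.03 points for H4R3me2s to 20.2 points for H4R3me2a on average, before any correction for the length of the lists. The peaks were chosen at P14, which can favour P14 for these marks.

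In Prmt1-dKO testes at P7, where only H4R3me2s was profiled, the share of the exonic peaks of P14 that was met overlapped between the genotypes. The lists covered 7.71% and 8.01% of them in Prmt1-dKO and 8.01% and 8.88% in WT, a difference of −0.582 points (exact permutation p = 0.667, of which the smallest possible value is 0.333). The direction turned when overlap with the whole exon counted (11.6% in WT and 11.8% in Prmt1-dKO) and among members with q of at most 0.01 (15.7% and 20.2%, exact permutation p = 0.333). The first WT list stood apart from the others, with 12.1% of its peaks outside promoters having their summit in an exon, against 3.55% in the second. H3R2me2a was not profiled in Prmt1-dKO cells.

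The host genes were of low to middle expression at P7, the age of the RNA samples and not of the peaks. The 600 protein-coding hosts had a median of 6.20 TPM (transcript level scaled for length and library size) in WT whole testis, and 70.8% had at least 1 TPM. The hosts of intronic peaks had a median of 10.8 TPM with 78.8% at 1 TPM or more, and the 16640 protein-coding genes with eligible exons stood at 8.12 TPM with 67.1%. In sorted spermatogonia the medians were 1.47 TPM for exonic hosts, 4.2 for intronic hosts and 3.12 for all eligible genes. By library they were 1.26 and 0.37 TPM for exonic hosts, 3.99 and 3.29 for intronic hosts and 2.77 and 1.65 for all eligible genes, so the exonic value rests on which WT library is read. By level in whole testis, 0.733% of the genes at 0 TPM hosted an exonic peak, 5.02% of those above 0 and under 1 TPM, 5.20% of those at 1 to 10, 3.60% at 10 to 50 and 2.48% at 50 or more. The share was thus highest between 0 and 10 TPM and lower above it, and in sorted cells it likewise peaked above 0 and under 1 TPM, at 6.42%, and stood at 1.81% from 50 TPM.

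The gene lists held few hosts. Of 41 listed genes of meiosis, 42 listed splicing factors and 56 clustered protocadherins 0 held an exonic peak, against 600 of all 21951 protein-coding genes (2.73%). At that share lists of this size hold hardly any host, so these counts are no result about the peaks. Only 16653 protein-coding genes had exonic bases open to the rule (16640 of them with TPM values), so the share among those was higher. Of 23 chromatin, splicing and spermatogonial genes that the study names, only Sohlh2, a basic helix-loop-helix factor of spermatogonial differentiation, held one. The peak lay in coding exon 10 of 11 on chromosome 3 (55207554 to 55207809), with fold enrichments of 2.26 and 2.93. Its −log10 q was 0.369 and 1.23, so q was above 0.05 in both libraries. It was met by 1 list of H3R8me2a and 1 of H4R3me1 at P14. Sohlh2 stood at 48.9, 51.8 and 45.8 CPM in WT and 44.6, 38.1 and 39.5 CPM in Prmt1-dKO whole testes, a log2 fold change of −0.26 (SE 0.11) that missed the threshold (FDR = 0.134 by edgeR's quasi-likelihood test).

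Chromatin genes held a peak in 4 of 51 cases (7.84%): Arid1b, a subunit of the BAF remodelling complex, with 2 peaks, the DNA methyltransferase Dnmt3a, the H3K36 demethylase Kdm2a and the H3K4 methyltransferase Setd1b. Their fold enrichments ran from 2.21 to 3.14 in the first library, and none overlapped H3K4me3 in both libraries. The Kdm2a peak had q above 0.05 in both H3R2me2a libraries. Collagens held one in 5 of 44 cases (11.4%), namely Col20a1, Col4a2, Col6a2, Col8a1 and Col8a2, all in coding sequence, with 2 to 6 CG in windows of 57.3 to 65.3% GC and none with H3K4me3 in both libraries. Genes of the zinc finger symbols Zfp held one in 15 of 365 cases (4.11%), with 17 peaks, of which 13 were coding and 6 had H3K4me3 in both libraries. Zfp697, with 30 CG in its window and 12 of 14 other P14 lists, was one of these. The lists are small and not limited to genes with exonic bases open to the rule, and these shares are counts with no test.

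In whole testes at P7, 500 of the host genes were expressed enough to be tested between Prmt1-dKO and WT. At FDR below 0.05 and at least 2-fold (edgeR), 21 were higher in Prmt1-dKO (4.2%) and 15 lower (3.0%), where among all 16554 genes tested 5.32% were higher and 1.78% lower. The median log2 fold change of the hosts was −0.07, against 0.02 for all genes. The share of higher genes thus lay a little under that of all genes and the share of lower genes a little over it. In sorted spermatogonia none of 429 hosts was called by edgeR, and none of all 16443 genes (0%), the smallest FDR being 0.0774. Without the first or the second WT library, 232 or 185 hosts were called, as were 41.4% or 33.7% of all genes tested. Such a fit holds 1 WT library and takes its spread from the Prmt1-dKO pair alone, so nothing is read from these calls. There, 73 hosts (17.0%) were higher by 2-fold or more with an unadjusted p below 0.05, and 15 (3.50%) were lower, against 13.8% and 4.12% of all genes, and DESeq2 called 63 hosts (14.2%, against 11.2% of all genes).

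Whole testis also changed in its other cells, and fewer cells of a type cannot be told apart from less RNA per cell. The summed level of 5 Leydig cell markers was 618 to 719 TPM in WT and 156 to 178 in Prmt1-dKO, that of 8 Sertoli cell markers 4697 to 5107 and 3141 to 3454 TPM, of 3 peritubular markers 775 to 842 and 274 to 479 TPM, and of 5 macrophage markers 56.6 to 64.2 and 79.8 to 88.0 TPM. The 6 spermatogonial markers summed to 1000 to 1160 and 904 to 1060 TPM. In sorted cells the 6 spermatogonial markers summed to 773 to 780 TPM in WT and 1039 to 1097 in Prmt1-dKO, without overlap. There the 8 spermatocyte markers summed to 798 to 857 TPM in WT and 462 to 507 in Prmt1-dKO, the Sertoli markers to 243 to 273 and 339 to 461, and the macrophage markers were at 0 in WT and at 27 to 32.5 TPM in Prmt1-dKO. The part of these shifts in the changes of host genes was not tested.

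Lars2 had the largest decrease among the hosts named by the rule on called genes, from 705, 692 and 779 CPM in WT to 199, 211 and 185 CPM in Prmt1-dKO, a log2 fold change of −1.87 (SE 0.11, FDR = 0.0001). Every Prmt1-dKO testis lay below every WT testis. In sorted spermatogonia Lars2 read higher in Prmt1-dKO, at 564 and 588 CPM against 291 and 248 in WT, but missed the threshold (log2 fold change 1.10, SE 0.15, FDR = 0.0774). The 3′UTR of Lars2 held a peak in every list, whatever the antibody. Whether reads of other origin enter its RNA counts was not tested, so its values are uncertain.

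Tnc, which encodes the matrix protein tenascin C and held 2 exonic peaks, read 7.43, 9.32 and 10.9 CPM in WT and 2.99, 3.58 and 1.14 in Prmt1-dKO (log2 fold change −1.86, FDR = 0.0088). Lrrn2, a leucine-rich repeat neuronal protein, read 27.8, 25.8 and 24.4 CPM in WT and 6.50, 8.68 and 8.31 in Prmt1-dKO (−1.73, FDR = 0.0006). E2f7, an atypical E2F repressor, read 29.4, 29.1 and 28.2 CPM in WT and 12.8, 8.36 and 9.51 in Prmt1-dKO (−1.49, FDR = 0.0013). None of these groups overlapped. Inhba, the βA subunit of activin, read 74.2, 65.8 and 59.8 CPM in WT and 26.9, 14.0 and 38.7 in Prmt1-dKO (log2 fold change −1.32, FDR = 0.0153). It was no longer called without the first WT library (FDR = 0.0605), the second WT library (0.0523) or the first Prmt1-dKO library (0.0507). The exonic peaks of E2f7 and Inhba had q above 0.05 in both H3R2me2a libraries.

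Among the hosts with higher counts, Lgr6, a receptor for R-spondins, read 1.34, 2.27 and 2.20 CPM in WT and 13.1, 14.3 and 8.31 in Prmt1-dKO (log2 fold change 2.61, FDR = 0.0013). Its last exon carried a peak in 12 of the 14 other P14 lists. The forkhead factor Foxc1 read 2.07, 2.76 and 2.14 CPM in WT and 8.03, 14.9 and 7.93 in Prmt1-dKO (2.14, FDR = 0.0027). Shank1, a scaffold of synapses, read 2.07, 1.47 and 1.95 CPM in WT and 4.74, 10.4 and 4.69 in Prmt1-dKO (1.84, FDR = 0.0096). Each of these genes was low in WT and did not overlap between genotypes. The exonic peak of Shank1 had q above 0.05 in both H3R2me2a libraries.

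Sprr2a2 had 0, 1 and 1 counts in WT and 140, 34 and 579 in Prmt1-dKO (FDR = 0.0043). It belongs to a family of near-identical small proline-rich genes among which reads can be split, so its values are uncertain. In sorted spermatogonia Lgr6 read 6.42 and 0 CPM in WT and 0.837 and 1.13 in Prmt1-dKO, Foxc1 4.50 and 0.785 against 0.451 and 0.132, and Shank1 19.8 and 13.1 against 2.51 and 2.52 (FDR = 0.771, 0.288 and 0.146). The means of all 3 lay lower in Prmt1-dKO in the sorted cells, opposite to whole testis, and none was called there.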

How the data were processed

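The deposited files were 33 CUT&Tag peak lists and 10 RNA tables (43 samples). Per the labels and the study's methods, the authors trimmed reads with fastp 0.23.2 and called peaks in each library separately with MACS2 2.1.0 at p = 0.005 (H3K4me3 at q = 0.05), on mm10. The aligner of the CUT&Tag reads is not given in the sources used here. The deposited lists give each peak's fold enrichment (a ratio over the modelled background) and −log10 p and q values. For RNA, the authors aligned reads with STAR and gave RSEM expected counts and TPM values. The deposited FPKM column was not used.

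Peaks were placed by their summit with the GENCODE vM21 transcripts on GRCm38, whose chromosome lengths all peaks respected, and overlaps needed 1 bp (Python 3.11.15, pandas 2.3.3, pysam 0.24.0). The overlap code was checked against bedtools 2.31.1. When exons of several genes held a summit, protein-coding genes came first, then the longest exon. Marks were compared between kinds of peak by an exact sign-flip permutation test over 6 marks, and ages or genotypes by exact permutation of libraries, two-sided, with Benjamini-Hochberg adjustment. Expected counts were rounded and tested over all genes passing filterByExpr with edgeR 4.0.16 (quasi-likelihood, TMM, R 4.3.3), with DESeq2 1.42.0 as an alternative. CPM values use the library sizes after filtering, adjusted by the TMM factors. The scripts were tested on simulated data.

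Peaks and lists were chosen with earlier results of these data known. Genes are named by rule: the 8 strongest peaks, the 8 met in most and the 5 strongest met in none of the 14 other P14 lists, genes with 3 or more peaks, up to 5 called hosts per direction (mean of at least 50 counts, no overlap between genotypes), study-named genes and up to 6 members of each gene list. Sequences came from the reference genome and RefSeq promoter table (GRCm38). A gene that this rule names among the called hosts is not reported here.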

Additional observations from a re-analysis of the deposited data

How the results depend on the processing

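The number of exonic peaks was 121 when only peaks with q of at most 0.01 were kept and 365 with a 50% reciprocal overlap. It ran up to 845 with a 2000 bp limit under the other settings. With the 14 libraries as units instead of the 6 marks, exonic minus intronic overlap was −6.42 points (exact permutation p = 0.0149) and exonic minus intergenic −9.07 points (p = 0.002), though libraries of a mark share an antibody. The latter was −8.83 points (exact permutation p = 0.0312) in windows of 55 to 60% GC, a setting added after the data were seen. Leaving out libraries in turn gave −6.45 to −5.21 points against introns and −9.15 to −7.88 against intergenic sequence. For P14 minus P7 it gave 19.7 to 21.0 points for H4R3me2a, 15.6 to 17.0 for H3R8me2a, 7.50 to 12.0 for H4R3me1, 1.60 to 5.68 for H4R3me2s, 10.6 to 18.0 for H3K27ac and 12.0 to 17.7 for H3K4me3. The difference of H4R3me2s between Prmt1-dKO and WT ran from −1.02 to −0.146 without single libraries, and turned to 0.146 points when overlap with the whole exon counted and to 4.55 points among members with q of at most 0.01 (exact permutation p = 0.333), where the cause was not tested. Called hosts in bulk RNA-seq numbered 28 to 44 without single libraries (5.44% to 8.64% of hosts tested, with 5.15% to 8.54% of all genes called in the same fits) and 7 among the hosts of peaks with q of at most 0.01, of which fewer were tested. In Smart-seq2 they numbered 63 with DESeq2, 232 without WT replicate 1, 185 without WT replicate 2 and 0 without either Prmt1-dKO replicate (0 to 232). Without a WT library the remaining 1 is assumed to vary like the Prmt1-dKO pair, and 41.4% and 33.7% of all genes tested were called too. Samples of the same replicate number did not deviate together (r of 0.0825, −0.221 and −0.119 in bulk RNA-seq, 0.0177 in Smart-seq2). With the replicate number as a block 34 hosts were called in bulk RNA-seq (19 higher, 15 lower) and 0 in Smart-seq2. The peak lists have no read counts, so the depth behind a missing peak is unknown.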
